A study of Rattus norvegicus with 24 samples.

Results

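Ventricles of control rats were compared between 42 and 28 days after a buffer injection, to ask which transcripts differ between these 2 ages of a growing, untreated heart. The 8 arrays of the comparison, 4 animals at each day, were chosen by their titles out of 24 arrays in the series. All animals were male Wistar rats of 150 g at injection, caged apart with free access to feed and water. Controls received citrate buffer. Diabetic rats, used here for comparison, received 65 mg/kg streptozotocin, a toxin of the insulin-producing beta cells, and ventricles of both kinds were taken after 3, 28 or 42 days, with 4 animals in each of the 6 groups. Total RNA, 6 micrograms per animal, was labelled and hybridised to the Affymetrix rat genome U34 array, set A, 1 array per animal. The labels give time after injection and not age since birth, and the frozen tissue was the ventricles, without a split into left and right.

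Heat shock proteins are chaperones that bind unfolded proteins and help them refold. The Hsp70 proteins work in a cycle with J-domain co-chaperones (the Dnaj genes), which bring them their substrates, and with Hsp110 proteins such as Hsph1, which release the nucleotide that closes the cycle. Their genes are switched on together by heat shock factor 1, which binds repeats of the letters GAA and TTC in their promoters, and in the heart they are known to rise after heat or ischaemia. The circadian clock, the other system looked at closely here, is a set of transcription factors whose levels rise and fall with the time of day in heart muscle as in other tissues.

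The probe set signals are linear intensities that the authors had scaled to a common level, with a trimmed mean between 1502 and 1503 on all 24 arrays. The median signal per array ran from 347.5 to 381.4 at day 28 and from 356.4 to 371.4 at day 42. Correlations between arrays were 0.952 to 0.965 within day 28, 0.964 to 0.969 within day 42 and 0.936 to 0.964 between the days. All 4 day 28 controls were scanned on 1 day and all 4 day 42 controls on 1 other day, by another operator, so day of harvest, scan day and operator cannot be told apart in this comparison. Ratios of 3' to 5' signal, a measure of RNA quality, were compared as well. The ratio of 3' to 5' signal of hexokinase, which rises as RNA loses its 5' ends, was 1.90, 2.58, 1.61 and 1.80 in the day 28 controls and 5.07, 3.13, 4.43 and 3.13 in the day 42 controls, and the groups did not overlap (exact permutation test, two-sided, p = 0.029, the smallest that 4 against 4 arrays can give, adjusted p = 0.11 over 8 measures). The same ratio was 2.60 to 3.90 on the diabetic day 42 arrays, which were read on the same scan day by the same operator as the day 42 controls. The GAPDH ratio was 1.08 ± 0.0296 and 1.18 ± 0.0393 (SD, n = 4 each, exact permutation p = 0.029, adjusted p = 0.11). The beta-actin ratio lay the other way, at 1.39 ± 0.304 and 1.20 ± 0.158 (exact permutation p = 0.31). No ratio passed after adjustment, but these ratios alone, even at the smallest possible p, could not pass over 8 measures. The adjusted values therefore decide nothing here. A fit with the hexokinase ratio as a covariate is given for all probe sets, for the named calls together and for the heat shock list.

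The day 42 control rats were heavier than the day 28 ones. Body weight was 330, 295, 312 and 351 g at day 28 and 423, 421, 413 and 472 g at day 42, without overlap. The means were 322 ± 24 g and 432 ± 26.9 g (SD, n = 4 each), 34.2% apart (exact permutation test, two-sided, p = 0.029, the smallest possible, adjusted p = 0.11 over 4 measures). Ventricle weight was 0.84, 0.75, 0.71 and 0.90 g at day 28 and 0.96, 0.90, 0.96 and 1.17 g at day 42, so the groups touch at 0.90 g. The means were 0.80 ± 0.086 g and 0.998 ± 0.118 g (SD, n = 4 each), 24.7% apart, a difference that did not pass (exact permutation p = 0.057, adjusted p = 0.11). The ratio of the 2 weights was 2.48 ± 0.138 mg/g at day 28 and 2.30 ± 0.141 mg/g at day 42 (SD, n = 4 each, exact permutation p = 0.086, adjusted p = 0.11). Blood glucose was 113 ± 10.1 mg/dL and 132 ± 22.5 mg/dL (SD, n = 4 each, exact permutation p = 0.26, adjusted p = 0.26).

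**Figure D1:**
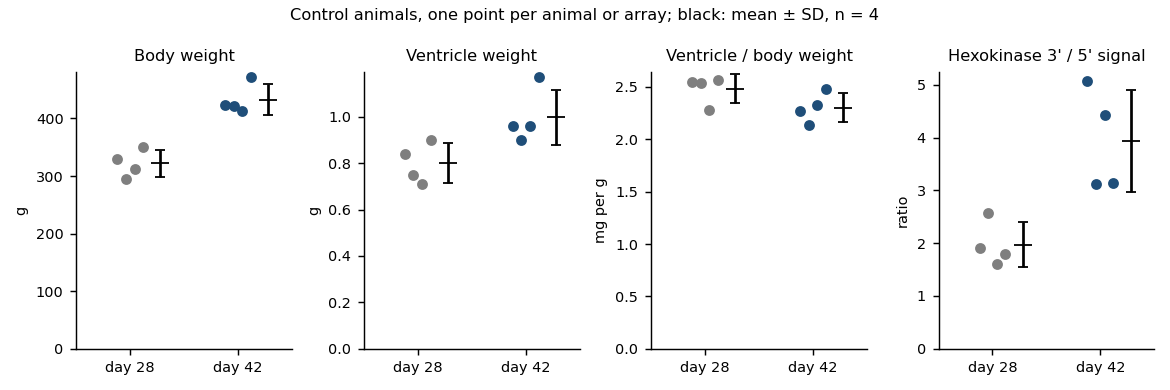
Body weight in g, ventricle weight in g, their ratio in mg per g and the hexokinase 3' to 5' signal ratio of the control animals, 1 point per animal or array, with the mean and SD in black (n = 4 per day). Body weight (295 to 351 g against 413 to 472 g) and the hexokinase ratio (1.61 to 2.58 against 3.13 to 5.07) do not overlap between the days, while ventricle weight and the weight ratio do.

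At the level of single transcripts, 474 of 5244 probe sets differed between the days (9.04%; limma, moderated test over all 24 arrays, Benjamini-Hochberg adjusted p under 0.05). Of these, 210 were higher and 264 lower at day 42, and 164 differed at least 2-fold, 57 upwards and 107 downwards. With 1 probe set per gene, 127 of 3140 genes were higher (4.04%) and 128 lower (4.08%), 8.12% in all, and the median log2 difference over all genes was 0.02. The count fell to 206 without day 28 replicate 3, 254 without day 28 replicate 4, and 303, 271 and 261 without day 42 replicates 2, 3 and 4. It fell to 11 with the hexokinase ratio as a covariate, which widened the standard errors 1.6 times at the median, while all 474 differences kept their sign. Fits with the chip lot or the fluidics station as a block called 126 and 187 probe sets. Within the chip lot that both days share (1 day 28 and 4 day 42 controls) 127 were called, and within fluidics station 2 (4 and 1 controls) 10 were called, a lone array being taken to vary like the other groups. Of the 91 genes named by rule that passed, 41 passed whichever array was left out. Leaving out day 28 replicates 1, 2, 3 and 4 ended 3, 2, 46 and 37 of the 91 calls, and leaving out day 42 replicates 1, 2, 3 and 4 ended 22, 30, 30 and 35. Genes described below as holding without any 1 array belong to the 41. Some of the 41, among them Des, Ldb3 and Eef1a2, are given below without that remark. Holding in this sense does not extend to technical factors. Of the 91 calls, 87 ended with the hexokinase covariate, 72 with the chip lot block, 47 with the station block, 68 within the shared chip lot and 89 within station 2.

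Several heat shock genes were higher at day 42. Of 23 measured members of a list of heat shock proteins and co-chaperones, 8 were higher and 1 lower at day 42, against 4.04% and 4.08% of all genes, and the list's median log2 difference was 0.27 against 0.02 for all genes. The Hsp70 gene Hspa1a, the main stress-inducible chaperone, had signals of 2072, 2937, 3381 and 5820 at day 28 and of 20802, 17174, 25429 and 16990 at day 42. Every day 42 array was well above every day 28 array. The means were 3552 ± 1607 and 20099 ± 3964 (SD, n = 4 each), a log2 difference of 2.58 (SE 0.56, 5.99-fold, adjusted p = 0.0064). The probe set carries the Affymetrix mark for probes shared by similar sequences, so a near-identical Hsp70 copy may contribute to it.

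Among the J-domain partners of Hsp70, Dnajb1, Dnaja1 and Dnajb5 rose, Dnaja2 fell, and Dnaja4 (0.26) and Dnajb9 (-0.30) did not pass. Dnajb1, the co-chaperone that hands stress-unfolded proteins to Hsp70, had signals of 1601, 1443, 1738 and 1867 at day 28 and 5622, 3987, 4965 and 5168 at day 42. The spread within each day was small and the groups lay far apart, with a log2 difference of 1.57 (SE 0.27, 2.96-fold, adjusted p = 0.00063). A further probe set for Dnajb1 rose by 1.42 (SE 0.24, adjusted p = 0.00054). Dnaja1, a J-domain protein found in unstressed cells too, went from 6152, 4637, 5823 and 5606 to 12471, 11950, 12745 and 11012. The 4 later values lay close together, all above the earlier ones (log2 difference 1.12, SE 0.21, 2.18-fold, adjusted p = 0.0014). Its other probe set overlapped between the days and did not pass (0.81, SE 0.30, adjusted p = 0.094).

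Hsph1, the Hsp110 nucleotide exchange factor of Hsp70, went from 2662, 2005, 2625 and 3177 at day 28 to 6116, 5822, 7074 and 5036 at day 42, without overlap (log2 difference 1.21, SE 0.26, 2.31-fold, adjusted p = 0.0051). Its other probe set rose by 1.35 (SE 0.35, adjusted p = 0.018). The small heat shock protein Hspb1, an abundant holdase of muscle that keeps unfolded proteins soluble, rose from 21813, 21386, 18661 and 23976 to 52294, 38083, 58188 and 45866 (log2 difference 1.17, SE 0.18, 2.25-fold, adjusted p = 0.00032). Of its 3 other probe sets 2 rose, by 1.07 and 0.80, and 1 did not pass (0.34, adjusted p = 0.49). These 5 genes held without any 1 array, and in each of them the 2 days did not overlap, which was so for 8.06% of all genes in this direction.

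Smaller rises were seen in Stip1, which links Hsp70 to Hsp90 (1339 ± 407 to 2133 ± 281, SD, n = 4 each, log2 difference 0.71, adjusted p = 0.023), in Hsf1, the heat shock transcription factor itself (0.59, adjusted p = 0.028), and in Dnajb5, a cardiac J-domain protein (0.52, adjusted p = 0.034). Dnaja2, another J-domain partner of Hsp70, was lower, with a log2 difference of -0.53 (adjusted p = 0.022). These 4 calls ended without day 28 replicate 3 and without day 28 replicate 4, and each also without 1 to 3 of the day 42 arrays. The other 14 members did not pass. Among them, Hsp90ab1, the constitutive Hsp90, stood at 37755 ± 1420 and 40068 ± 5444 (SD, n = 4 each, log2 difference 0.08, adjusted p = 0.70) on its brightest probe set. Its 3 other probe sets disagreed with this and with each other. Of these, 2 rose without overlap (0.73, adjusted p = 0.00043, and 0.49, adjusted p = 0.011) and 1 did not pass (-0.15, adjusted p = 0.74), so the direction for Hsp90ab1 depends on the probe set. The mitochondrial chaperonin Hspd1 (-0.28), its partner Hspe1 (-0.40), the lens and muscle chaperone Cryab (-0.30) and the mitochondrial Hsp70 Hspa9 (-0.37) had log2 differences below 0, with adjusted p of 0.15 to 0.31, and Chordc1, an Hsp90-binding protein, was at 0.58 (adjusted p = 0.086).

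A further 4 probe sets match several symbols each, all of them on the heat shock list, and are therefore not assigned to a gene. Their day 28 and day 42 control signals did not overlap. The first ran from 79.2 to 201.5 at day 28 and from 4302 to 9775 at day 42, a log2 difference of 5.84 (SE 0.86, 57.2-fold, adjusted p = 0.00016). The other 3 rose by 3.26, 3.07 and 2.71 on the log2 scale (adjusted p = 0.00088, 0.0043 and 0.015), and all 4 held without any 1 array. With the hexokinase ratio as a covariate all 4 calls ended (limma, adjusted p = 0.055, 0.18, 0.23 and 0.24). Their log2 differences in that fit were 6.43, 3.26, 3.39 and 3.26. The other 3 also ended with the chip lot as a block and within fluidics station 2, where 1 day 42 control remains. The last of them ended with the fluidics station as a block too.

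The heat shock count changed in fits with technical factors. With the hexokinase ratio as a covariate 0 members passed (limma; 7 higher at an unadjusted p under 0.05), although Hspa1a and Dnajb1 kept log2 differences of 2.99 and 1.59 (adjusted p = 0.23 and 0.16). The count was 5 with the fluidics station as a block, 0 with the chip lot as a block (7 at an unadjusted p under 0.05), 3 within the shared chip lot and 0 within station 2 (5 at an unadjusted p under 0.05). Hspa1a stood at 2.45, 1.82, 3.26 and 2.38 in these 4 fits, with adjusted p of 0.046, 0.24, 0.00036 and 0.11. It was 5 without day 28 replicate 3 and 5 without day 28 replicate 4.

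**Figure D2:**
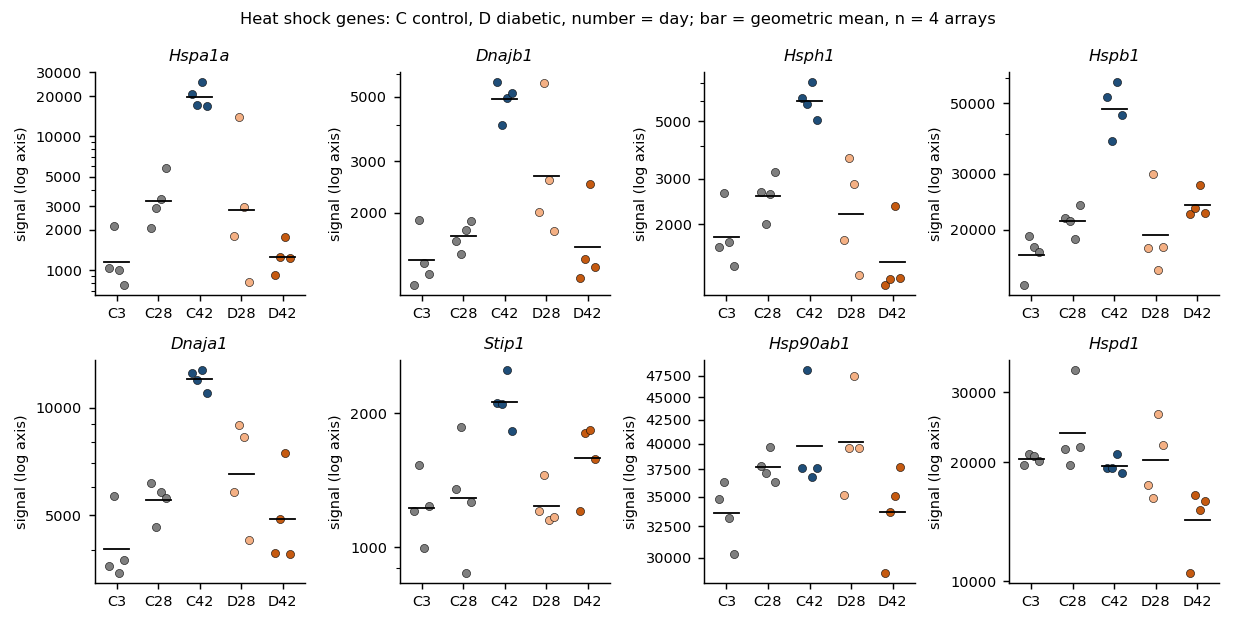
Signal (log axis) of 8 heat shock genes on every array of the day 3, 28 and 42 controls (C3, C28, C42) and of the day 28 and 42 diabetic rats (D28, D42), with bars at the geometric mean of 4 arrays. The C42 points of Hspa1a, Dnajb1, Hsph1, Hspb1 and Dnaja1 lie above every C28 point and every D42 point, while those of Hspd1 and of the brightest Hsp90ab1 probe set, the 1 drawn, overlap the C28 points.

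The promoters of the heat shock genes past the threshold were searched for the core of a heat shock element, TTCNNGAA or GAANNTTC. Each motif reads the same on both strands, and the 2 forms can overlap by 3 letters. The windows run from 250 bases before to 50 bases after the gene start (RefSeq, build GRCr8). Of the 9 heat shock genes past the threshold, 7 had a window, and 5 of these 7 held at least 1 match, against 10.6% of 2595 promoters of the genes tested and 15.9% of all 33469 promoters. Heat shock factor 1 binds such repeats in genes of this kind, so matches could be expected however the genes moved. Members of the list that did not pass were not searched, and the cause of the rises was not tested. The first 4 windows below belong to the genes with the largest differences that hold a match. The last is that of Hspa1a, whose window holds none. Each gene has 1 window at 1 annotated start, and elements outside it, at Hspa1a or another gene, were not searched for. Capitals mark the matches, 5' to 3' along the gene's strand.
Dnajb1, chr19:41431092-41431391, minus strand: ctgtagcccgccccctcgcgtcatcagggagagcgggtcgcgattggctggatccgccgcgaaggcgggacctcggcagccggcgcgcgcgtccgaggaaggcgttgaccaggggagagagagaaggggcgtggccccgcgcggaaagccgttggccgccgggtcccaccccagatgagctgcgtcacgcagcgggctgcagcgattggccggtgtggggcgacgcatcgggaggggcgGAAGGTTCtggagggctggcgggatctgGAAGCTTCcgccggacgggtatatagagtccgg
Hsph1, chr12:10427118-10427417, plus strand: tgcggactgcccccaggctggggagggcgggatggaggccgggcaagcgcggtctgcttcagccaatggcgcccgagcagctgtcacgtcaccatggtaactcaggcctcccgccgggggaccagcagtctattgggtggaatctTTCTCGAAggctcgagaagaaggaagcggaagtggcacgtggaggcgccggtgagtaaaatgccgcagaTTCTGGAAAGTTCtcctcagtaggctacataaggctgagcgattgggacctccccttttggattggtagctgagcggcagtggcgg
Hspb1, chr12:26432252-26432551, minus strand: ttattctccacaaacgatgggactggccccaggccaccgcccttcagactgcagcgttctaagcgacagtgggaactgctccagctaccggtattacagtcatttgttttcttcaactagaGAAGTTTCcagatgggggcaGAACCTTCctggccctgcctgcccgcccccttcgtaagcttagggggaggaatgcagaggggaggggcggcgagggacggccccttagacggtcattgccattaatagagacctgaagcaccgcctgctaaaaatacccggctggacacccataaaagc
Dnaja1, chr5:60638154-60638453, plus strand: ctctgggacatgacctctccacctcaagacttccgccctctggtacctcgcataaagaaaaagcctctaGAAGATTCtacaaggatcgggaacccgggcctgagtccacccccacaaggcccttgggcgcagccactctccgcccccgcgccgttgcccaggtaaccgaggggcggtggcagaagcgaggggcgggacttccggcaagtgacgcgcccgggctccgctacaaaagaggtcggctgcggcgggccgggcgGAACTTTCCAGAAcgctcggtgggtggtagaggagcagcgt
Hspa1a, chr20:3859506-3859805, plus strand: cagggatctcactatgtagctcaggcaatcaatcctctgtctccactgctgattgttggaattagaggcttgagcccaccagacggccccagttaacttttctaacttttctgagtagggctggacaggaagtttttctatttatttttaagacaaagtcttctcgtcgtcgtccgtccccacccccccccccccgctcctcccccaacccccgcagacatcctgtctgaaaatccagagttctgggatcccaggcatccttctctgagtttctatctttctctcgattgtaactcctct
Hsph1 and Dnaja1 held 3 matches each, and in both genes 2 of these overlap. In Hsph1 the overlapping pair begins 36 and 31 bases before the start, and in Dnajb1 the matches begin 11 bases before and 17 bases after it. Stip1 held 1 match 8 bases before its start, and Dnajb5 held none. Of other motifs, an E-box, CACGTG, was found in 1 of the 7 windows (6.42% of all promoters), and neither a D-box, TTANGTAA (2.24%), nor a cyclic AMP element, TGACGTCA (1.83%), in any. Both strands were searched for every motif.

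The same genes behaved otherwise in the diabetic rats. From day 28 to day 42 the diabetic log2 differences were -1.15 for Hspa1a, -0.80 for Dnajb1, -0.61 for Hsph1, -0.43 for Dnaja1 and 0.31 for Hspb1, of which Dnajb1 passed (adjusted p = 0.045), where 14.2% of genes passed, 7.29% upwards and 6.88% downwards. Hspa1a stood at 1811, 13969, 2946 and 821 on the diabetic day 28 arrays, where replicate 2 was far above the rest, and at 919, 1255, 1761 and 1232 at day 42. In these 5 genes all 4 day 42 controls lay above all 4 day 42 diabetic arrays, which share their scan day and operator. The share of all genes lying apart between these groups was not counted, so this only describes the 5 genes. The difference between the 2 courses passed for Hspa1a (3.74, SE 0.80, adjusted p = 0.016), Dnajb1 (2.37, SE 0.38, adjusted p = 0.00084), Hsph1 (1.82, SE 0.37, adjusted p = 0.0090) and Dnaja1 (1.55, SE 0.30, adjusted p = 0.0048), where 0.892% of genes passed in all, 0.764% upwards and 0.127% downwards. It did not pass for Hspb1 (0.86, SE 0.26, adjusted p = 0.17), and it did for Chordc1 (1.25, SE 0.30, adjusted p = 0.044). For Hspa1a, Dnajb1, Hsph1 and Dnaja1 in turn, the difference between courses was as large with scan day as a block (3.95, 2.50, 1.92 and 1.604, adjusted p = 0.0032 to 0.023) and with the hexokinase ratio as a covariate (3.75, 2.37, 1.82 and 1.55). Scan day steps alike in both courses for all but 1 array, so that block could hardly change the estimates. In other fits calls ended. All 4 ended within station 2, Dnaja1 also within the shared chip lot, and Hspa1a also with the station block and with only the compared groups in the fit. That of Hspa1a missed the threshold without day 28 control replicate 1 (adjusted p = 0.05008), and that of Chordc1 ended without 12 of the 16 arrays and with scan day as a block (adjusted p = 0.12). The 4 probe sets with several symbols had diabetic log2 differences of -1.81 to -2.89, with adjusted p of 0.025 to 0.067. Their difference between courses was 4.55 to 8.73 (adjusted p = 0.00027 to 0.013). These calls too ended within station 2, where 1 day 42 control remains, and the smallest, 4.55, also ended with the station block.

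The circadian clock genes gave no call between the day 42 and day 28 controls. None of 9 measured members passed, where 8.12% of all genes did. Their median log2 difference was 0.00 (limma; 2 at an unadjusted p under 0.05, smallest adjusted p = 0.066 for Csnk1d). So short a list can hold no call at that share, and the count is no result about the list. Dbp, an output transcription factor of the clock with a deep daily rhythm, had signals of 3493, 4731, 3013 and 3341 at day 28 and 4921, 4813, 4432 and 4797 at day 42. The ranges overlap, and the log2 difference was 0.40 (SE 0.31, adjusted p = 0.45). The other Dbp probe set did not overlap, at 838.4 to 1769 and 2082 to 2314.5, but did not pass either (0.80, SE 0.37, unadjusted p = 0.042, adjusted p = 0.18). Per2, a repressor of the core loop, stood at 1706 ± 277 and 1696 ± 102 (SD, n = 4 each, log2 difference 0.00, adjusted p = 1.00). The nuclear receptors Nr1d1 and Nr1d2, which repress clock transcription, had log2 differences of 0.28 and -0.12 (adjusted p = 0.83 and 0.90).

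Bhlhe41, another repressor of the loop, had groups that did not overlap but did not pass, at 1932 to 2512 on day 28 and 1396 to 1692 on day 42 (log2 difference -0.47, adjusted p = 0.25). The groups of 8.50% of all genes lay apart in this direction. Of the other groups, the day 3 controls and the day 42 diabetic rats lay elsewhere. Dbp was 361, 919, 1203 and 609 in the day 3 controls and 687, 608, 767 and 459 in the day 42 diabetic rats, all far below both control groups described here. The diabetic day 28 arrays overlapped the day 28 controls on the other Dbp probe set, at 1255.9 to 1935.5 against 838.4 to 1769. On the brightest probe set the log2 difference of Dbp from day 28 to day 42 in diabetic rats was -2.84 (adjusted p = 1.1e-06). Its difference between courses was 3.24 (SE 0.43, adjusted p = 0.00013). Bhlhe41 fell by 2.16 there (adjusted p = 2.1e-06), with a difference between courses of 1.69 (SE 0.35, adjusted p = 0.0097).

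**Figure D3:**
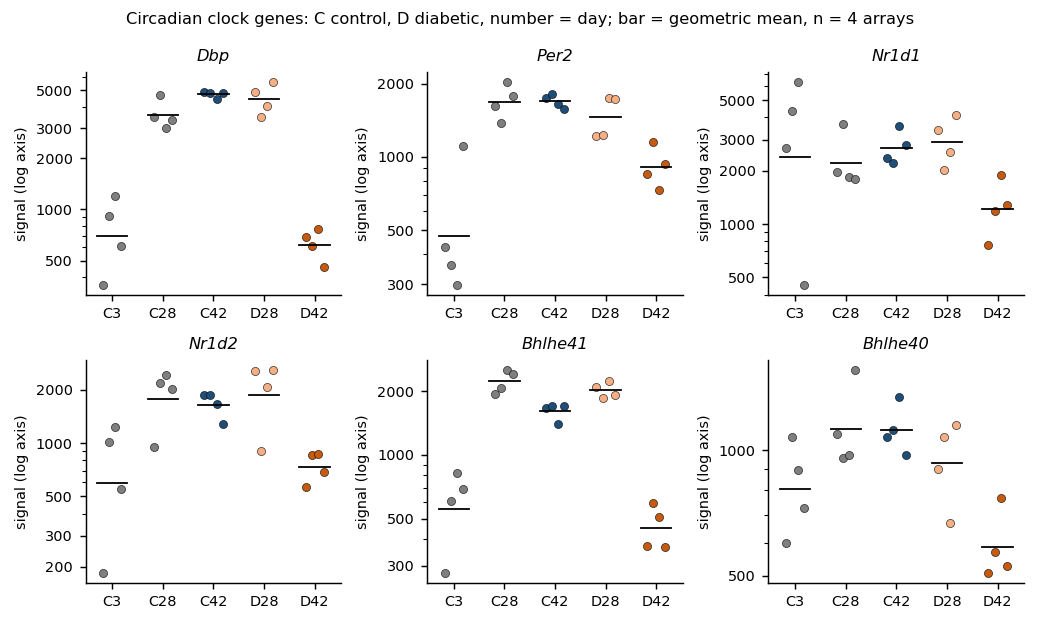
Signal (log axis) of 6 circadian clock genes on every array, groups and bars as for the heat shock genes. The C28 and C42 points of Dbp (3013 to 4921), Per2, Nr1d1, Nr1d2 and Bhlhe40 overlap, and for Dbp and Bhlhe41 every C28 and C42 point lies above every C3 and every D42 point.

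Immediate early genes, which respond to stimuli within minutes, did not pass either. None of 22 measured members was called, where 8.12% of all genes were. Their median log2 difference was 0.35, with a range from -0.53 to 1.17 (limma; 4 at an unadjusted p under 0.05, smallest adjusted p = 0.073 for Dusp6). A list of this length can hold no call at that share, so the count is no result about the list. The orphan nuclear receptor Nr4a1 had signals of 1074, 918, 2269 and 12666 at day 28 and 7267, 2964, 6691 and 5064 at day 42 (log2 difference 1.17, adjusted p = 0.38). Egr1, a zinc finger factor, had 3072, 1968, 13936 and 40331 at day 28 and 2617, 2784, 9541 and 12340 at day 42 (-0.50, adjusted p = 0.78). Day 28 replicate 4 was the highest day 28 array in both, and the spread among the day 28 controls was wider than the difference between the days. Fos (0.64), Jun (0.89) and Atf3 (0.72), stress-activated transcription factors, had adjusted p of 0.54, 0.16 and 0.60.

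Other stress lists gave few calls, where 4.04% of all genes rose and 4.08% fell. In the oxidative stress list 3 of 23 genes rose, among them the glutathione peroxidases Gpx4 (0.54, adjusted p = 0.039) and Gpx3 (0.54, adjusted p = 0.043), and none fell. Of 10 endoplasmic reticulum stress genes 1 was called, the protein disulfide isomerase Pdia3, with a log2 difference of -1.71 (adjusted p = 0.00013) while its other probe set gave -0.03 (adjusted p = 0.95). Of 14 glucocorticoid-responsive genes, Pdk4 and Anxa1 fell and none rose, and none of 5 p53 and growth arrest genes was called (limma; 0 at an unadjusted p under 0.05). Of 12 interferon and antigen presentation genes, 7 MHC class II genes and 16 acute phase genes none was called (limma; 2, 0 and 2 at an unadjusted p under 0.05). P4ha1, the collagen prolyl hydroxylase, was the 1 call among 9 genes on the hypoxia list.

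Among all named genes the largest rises outside the heat shock list included channels and their partners. Kcnd3, the pore subunit of the transient outward potassium current, had signals of 63, 330, 115 and 152 at day 28 and 593, 518, 350 and 527 at day 42, just without overlap (log2 difference 1.82, SE 0.43, adjusted p = 0.0094). Kcnk3, a background potassium channel, went from 586 ± 292 to 1562 ± 177 (SD, n = 4 each, log2 difference 1.58, adjusted p = 0.00091), and its other probe set rose by 2.64 (adjusted p = 0.012). Cacna2d1, an auxiliary subunit of calcium channels, went from 1242, 719, 970 and 753 to 2618, 2626, 2510 and 2869, with almost no spread at day 42 (log2 difference 1.56, SE 0.20, 2.95-fold, adjusted p = 4.8e-05). All 3 held without any 1 array. Kcnd3 fell by 1.93 in the diabetic course (adjusted p = 0.0034), and its difference between courses was 3.75 (SE 0.60, adjusted p = 0.00084), whereas Kcnk3 and Cacna2d1 rose there as well, by 1.26 and 1.35.

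P4ha1 rose from 708, 1332, 944 and 1568 to 4245, 3697, 4638 and 3184 (log2 difference 1.84, SE 0.27, 3.59-fold, adjusted p = 0.00015), with every later array far above every earlier one. Casz1, a zinc finger factor of heart development, rose by 1.73 (adjusted p = 0.013), Actn4, an actin crosslinker, by 1.27 (adjusted p = 0.0012), Epn1, an endocytic adaptor, by 1.33 (adjusted p = 0.0038) and G0s2, an inhibitor of triglyceride lipase, by 1.17 (adjusted p = 0.0071). Of these 5, all but Casz1 held without any 1 array, and Casz1 was lost without day 42 replicate 4. Crmp1, Atn1, Cd1d1 and Deaf1 complete the 15 largest rises, with log2 differences of 1.5, 1.46, 1.42 and 1.26 and adjusted p of 0.012 to 0.033, and Deaf1 ended without day 28 replicate 3 alone while the other 3 ended without 5 or 6 of the 8 arrays.

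Among the 15 largest falls, Pnn, a nuclear protein of splicing, went from 1582, 1814, 2210 and 2105 at day 28 to 569, 372, 567 and 559 at day 42 (log2 difference -1.91, SE 0.25, adjusted p = 7.9e-05). Dhx36, an RNA helicase, fell by 2.22 (adjusted p = 0.0014), with day 28 replicate 3 at 1788 and the other day 28 arrays at 436 to 653. The splicing factor Srsf5 fell from 4908 ± 811 to 1944 ± 221 (SD, n = 4 each, log2 difference -1.33, adjusted p = 0.00013). Paqr3, a Golgi membrane protein (-2.30), Map3k12, a kinase upstream of JNK (-2.02), Rpa3, a subunit of the single-strand DNA binding complex (-1.84), Ranbp3, a nuclear transport cofactor (-1.39), and Tcf21, a factor of cardiac fibroblasts (-1.32), fell with adjusted p of 0.00036 to 0.011. All 8 of these held without any 1 array.

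Probe sets of 1 gene did not always move together among the falls. Gstt2 (-1.75) and Abcd3 (-1.73), like Pdia3, have another probe set, at -0.09 and 0.01 (adjusted p = 0.83 and 0.98). The call of Abcd3, a peroxisomal fatty acid transporter, ended without day 28 replicate 3, at 28881 the highest of its group, and without 4 other arrays. The probe sets assigned to Rpl19l4 (-2.30, adjusted p = 0.00054) and Crp (-1.52, adjusted p = 0.00022) carry the marks for probes shared among similar sequences, so what they measure is uncertain. Of 72 called probe sets with no symbol, 60 were lower and 12 higher at day 42, the largest fall being -3.59 and the largest rise 1.70. Over all 93 called genes with several probe sets, 107 of the 122 other probe sets had the same sign and 36 were called in the same direction.

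**Figure D4:**
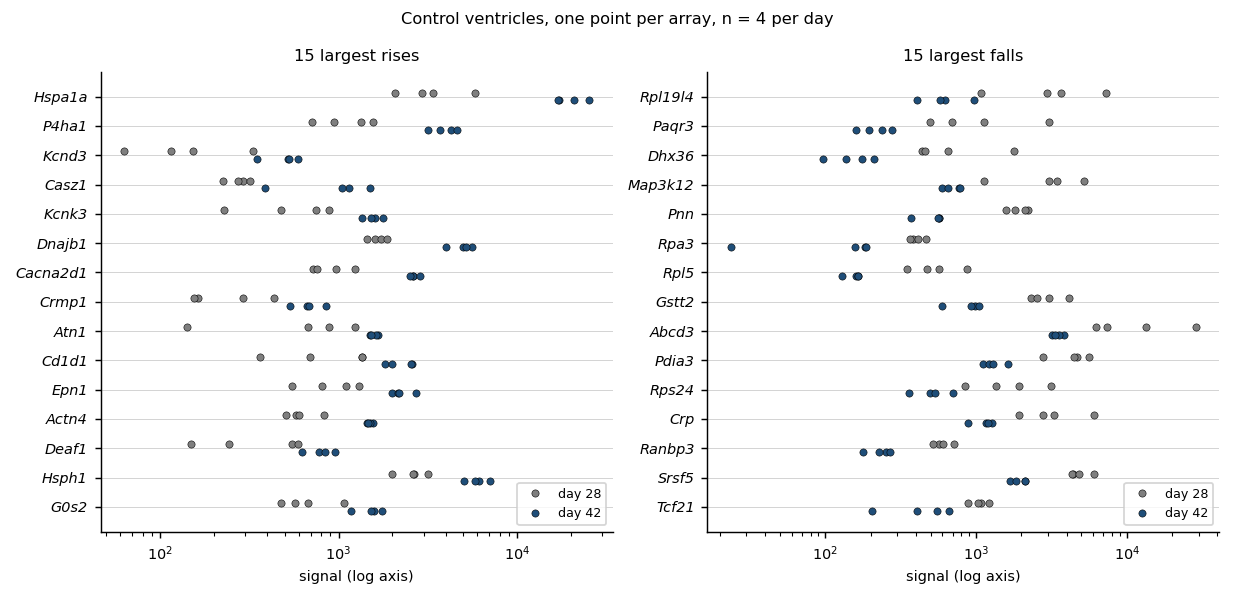
Signal (log axis) on each control array at day 28 (grey) and day 42 (blue) for the 15 genes with the largest rises and the 15 with the largest falls among genes that passed and whose groups do not overlap, a condition of the choice (n = 4 per day). Day 42 points are often tighter, as for Cacna2d1 (2510 to 2869) and Abcd3 (3190 to 3826), and day 28 replicate 3 is the highest point of Paqr3, Dhx36, Map3k12 and Abcd3.

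The transcription factors Nkx2-5 and Gata4 rose. Nkx2-5, which sets heart muscle identity, went from 2796, 2838, 1531 and 1704 to 4369, 4337, 4224 and 4295 (log2 difference 1.01, SE 0.19, adjusted p = 0.0017), and Gata4, its partner, from 674, 2059, 1216 and 1231 to 2561, 2392, 2578 and 2480 (1.06, SE 0.23, adjusted p = 0.0045). Both sets of day 42 values were nearly equal among animals, and both calls held without any 1 array. The other Gata4 probe set did not pass (0.56, adjusted p = 0.084). Nkx2-5 and Gata4 were the 2 calls among 17 hypertrophy and heart failure markers, where 8.12% of all genes were called. Hand2, Gata6 and Mef2d, cardiac transcription factors on the same list, did not pass (adjusted p = 0.0502, 0.13 and 0.22). The natriuretic peptides did not pass, with Nppa at -0.04 (adjusted p = 0.97) and Nppb at -0.08 (adjusted p = 0.88), nor did the myosin heavy chains Myh6 (0.01) and Myh7 (0.05), whose probe sets are of the shared kind. Another shared probe set of Myh6 was lower (-1.29, adjusted p = 0.00032), so its direction depends on the probe set.

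Of 13 adult sarcomere genes 2 rose, the intermediate filament Des (21655 ± 3729 to 33159 ± 1439, SD, n = 4 each, log2 difference 0.63, adjusted p = 0.00052) and the Z-disc protein Ldb3 (0.93, adjusted p = 0.0014). Calcium cycling had 2 rises and 1 fall among 24 genes, where 8.12% of all genes were called. Cacna2d1 and S100a1, a calcium sensor that stimulates the calcium pump, were higher (S100a1 0.53, adjusted p = 0.033) and the calcium release channel Itpr1 was lower (-0.62, adjusted p = 0.035). The pump itself, Atp2a2, and its inhibitor Pln stood at 0.09 and -0.19 (adjusted p = 0.78 and 0.30), and other Atp2a2 probe sets went both ways (0.61, adjusted p = 0.047, and -1.21, adjusted p = 0.011). Of 13 sodium channels, pumps and connexins, Scn7a (-0.97, adjusted p = 0.029) and the sodium pump subunit Atp1b1 (-0.56, adjusted p = 0.045) fell.

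Adrenergic and muscarinic signalling had 4 rises and no fall among 27 genes, with a median of 0.26, where 4.04% of all genes rose and 4.08% fell. Gnai2, the inhibitory G protein, went from 7190 ± 1383 to 13168 ± 1160 (SD, n = 4 each, log2 difference 0.89, adjusted p = 0.0062) and held without any 1 array. Grk2, the kinase that silences beta receptors (0.58), Prkaca, the catalytic subunit of protein kinase A (0.71), and Adcy5, the main cardiac adenylyl cyclase (0.43), rose with adjusted p of 0.025, 0.028 and 0.031. Each of these 3 ended without day 28 replicate 3 and without day 28 replicate 4. In the diabetic course the log2 differences of the 4 genes were 0.97, 0.48, 0.51 and 0.38.

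Fuel genes moved in both directions. Slc2a4, the insulin-dependent glucose transporter, had signals of 7953, 8394, 5971 and 6273 at day 28 and 10583, 10634, 12425 and 12420 at day 42 (log2 difference 0.70, SE 0.18, 1.62-fold, adjusted p = 0.018), while its other probe set did not pass (0.14, adjusted p = 0.71). Pygm, the muscle glycogen phosphorylase, rose by 0.65 (adjusted p = 0.010) and Pkm, pyruvate kinase, by 0.40 (adjusted p = 0.028), while Pygb, the brain-type phosphorylase, fell by 1.11 (adjusted p = 0.00084). In all, 4 of 20 glucose uptake and glycolysis genes rose and 1 fell, where 4.04% of all genes rose and 4.08% fell. Pygm and Pygb held without any 1 array, and Slc2a4 ended without day 28 replicates 3 or 4 or day 42 replicates 3 or 4.

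Pdk4, the kinase that shuts pyruvate out of the citric acid cycle, went the other way, from 1927, 4708, 3732 and 5184 to 1070, 1165, 2262 and 796 (log2 difference -1.57, SE 0.32, adjusted p = 0.0028). The ranges overlap through day 28 replicate 1 and day 42 replicate 3, and the call held without any 1 array. Pdk2, its constitutive relative, rose by 0.63 (adjusted p = 0.020). The fatty acid transporter Cd36 (-0.82, adjusted p = 0.019) and the carnitine transferase isoform Cpt1a (-0.57, adjusted p = 0.014) fell. With Pdk4 this makes 3 falls and no rise among 16 PPAR-alpha targets (median -0.20), where 4.08% of all genes fell. Among 20 fatty acid oxidation genes 2 rose, the thiolase Acaa2 (0.60, adjusted p = 0.022) and Hadha (0.44, adjusted p = 0.048), and 2 fell. Cpt1a ended without day 42 replicate 4, Cd36 without day 28 replicate 4 or day 42 replicates 1 or 4, and Acaa2 without day 28 replicate 3 or day 42 replicates 2 or 4.

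Of 38 oxidative phosphorylation genes 4 fell and 1 rose, with a median of -0.11, where 8.12% of all genes were called. Ndufs1, a complex I subunit, went from 2941 ± 706 to 1533 ± 205 (SD, n = 4 each, log2 difference -0.92, adjusted p = 0.0038) and held without any 1 array. Cox5a, of complex IV, fell by 1.30 (adjusted p = 0.018), and the nucleotide carrier Slc25a5 by 0.51 (adjusted p = 0.011), while Atp5f1d, of the ATP synthase, rose by 0.54 (adjusted p = 0.014). Without day 28 replicate 3 the calls of Cox5a, Slc25a5 and Atp5f1d ended. Of 27 proteasome and ubiquitin genes 2 fell, Ube2a (-0.49, adjusted p = 0.020) and Psma1 (-0.47, adjusted p = 0.027), and none rose, and 2 of 15 lysosome and autophagy genes rose, Lamp1 (0.52, adjusted p = 0.022) and Ctsd (0.58, adjusted p = 0.046). The share called among the proteasome genes lies near the 8.12% of all genes, so that count is no result about the list. The share among the oxidative phosphorylation genes was not tested against that of all genes.

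Of 40 ribosomal protein genes 7 fell and none rose, with a median of -0.10, where 4.08% of all genes fell and 4.04% rose. Rpl5, of the large subunit, went from 475, 351, 872 and 566 to 161, 165, 166 and 130 (log2 difference -1.79, SE 0.32, adjusted p = 0.00083), and Rps24, of the small subunit, from 1931, 853, 3168 and 1349 to 497, 701, 361 and 535 (-1.68, SE 0.29, adjusted p = 0.00065). Both held without any 1 array, and in both the highest value was day 28 replicate 3. Rpl17 fell by 1.36 (adjusted p = 0.022). Rpl5, Rps24 and Rpl17 fell in the diabetic rats too, by 1.995, 1.10 and 1.51. Of 13 translation factors, Eef1a2, the elongation factor of adult muscle, rose by 1.16 (adjusted p = 0.0012), Eef2 by 0.44 (adjusted p = 0.036), and the cap-binding Eif4e fell by 0.53 (adjusted p = 0.030).

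Matrix and growth genes gave the following calls, where 4.04% of all genes rose and 4.08% fell. Of 7 fibrillar and basement membrane collagens, Col5a2 fell by 0.98 (adjusted p = 0.0033) and Col5a1 rose by 0.67 (adjusted p = 0.047), and the list's median was -0.55, the lowest of the 37 lists. The main fibrillar collagens Col1a1 (-0.55, adjusted p = 0.17) and Col3a1 (-0.57, adjusted p = 0.18) did not pass. Lox, which crosslinks collagen, went from 663, 598, 589 and 652 to 212, 282, 293 and 384, an even fall by 1.12 on the log2 scale (SE 0.23, adjusted p = 0.0032), while its 2 other probe sets did not pass (-1.19 and -0.30, adjusted p = 0.082 and 0.47). Plod1, a collagen lysyl hydroxylase, rose by 0.94 (adjusted p = 0.016). Among 20 cell division genes, Pcna (-0.73, adjusted p = 0.023) and Hmgb2 (-1.12, adjusted p = 0.038) fell and none rose. Of 15 genes of the insulin-like growth factor axis 1 was called, the adaptor Grb10, which fell by 0.44 (adjusted p = 0.041), and Igf1, Igf2 and H19 had log2 differences of 0.08, -0.06 and 0.45 with adjusted p of 0.28 to 0.90. Col5a2 and Lox held without any 1 array.

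**Figure D5:**
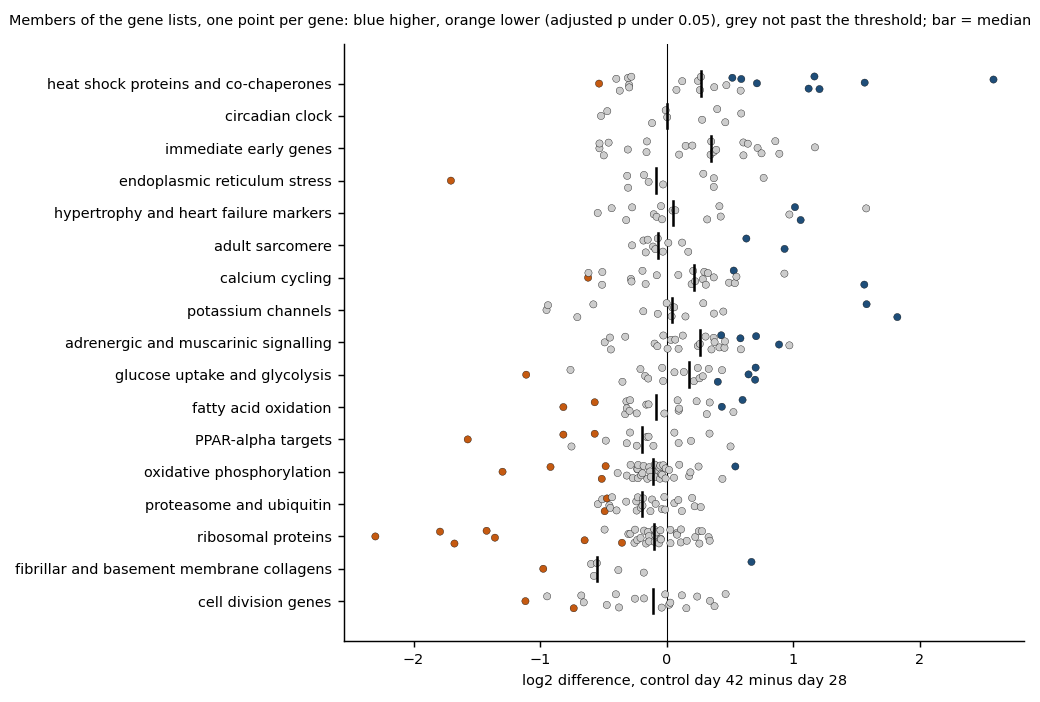
Log2 difference between day 42 and day 28 controls for each measured gene of 17 lists, with genes past the threshold in blue (higher) or orange (lower) and a bar at the list's median. Heat shock genes reach 2.58 with 8 blue points, no clock or immediate early gene is coloured, and the 7 orange ribosomal protein genes lie between -0.35 and -2.30.

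Markers of the cells that make up the tissue were checked, where 4.04% of all genes rose and 4.08% fell. Lists this short can hold no call or 1 call at those shares, so the counts of calls are no result about the cells. All 10 cardiomyocyte markers on the array were measured and none was called (limma; 1 at an unadjusted p under 0.05), and their summed signal was 535172 to 746225 at day 28 and 525274 to 704759 at day 42. The summed signal of 5 endothelial markers was 5002.5 to 5479 at day 28 and 3364 to 4531 at day 42, without overlap, and Kdr, a receptor for vascular growth factor, was the 1 call (-0.99, adjusted p = 0.045), ending without 6 of the 8 arrays. For 11 fibroblast markers the sums overlapped at 105534 to 153930 and 96500 to 105908, with 1 call, Tcf21. The sums of 7 smooth muscle and pericyte markers (23594 to 32962.5 and 37691 to 47843) were higher at day 42 without overlap, with Des the 1 call. Des gives most of this sum on both days and is also on the adult sarcomere list. The other markers of the list had log2 differences from -0.62 to 0.40 and did not pass. On the neutrophil and mast cell list the 4 measured genes are mast cell genes, and no neutrophil marker passed the filter. Their sums (2226 to 2953 and 3394 to 3667) were higher at day 42 without overlap. The tryptase Tpsb2 was the 1 call (0.87, adjusted p = 0.0017), while Tpsab1 (0.31), Cma1 (-0.003) and Cpa3 (-0.39) did not pass. Sums for 7 lymphocyte markers were also higher (3019 to 3675 and 3733 to 4149) and those for 6 adipocyte markers lower (22856 to 30101 and 19837 to 21893), the latter with 1 call, Fabp4 (-0.79, adjusted p = 0.034). Defining markers of other tissues, among them Alb of liver, Sftpc of lung, Prss1 of pancreas and Myh4 of skeletal muscle, lay below the filter on dim probe sets. The atrial light chains Myl7 and Myl4 were high on day 28 replicate 2 (11412 and 5517, against 453 to 1839 and 215 to 758 on the other day 28 arrays). In whole ventricle, fewer cells of a type and less RNA per cell cannot be told apart, and the part of cell makeup in the gene differences was not tested.

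The diabetic rats of the same days give a comparison that shares no array with the controls, although it shares the step in scan day and operator for all but 1 array. Between day 28 and day 42, 783 probe sets differed in diabetic rats (14.9%). Of these, 246 were called in the same direction in controls, which is 51.9% of the control calls and 31.4% of the diabetic calls, and 6 were called in opposite directions. Falls common to both courses included Pnn (-1.91 in controls and -1.33 in diabetic rats), Rpl5 (-1.79 and -1.995) and Ndufs1 (-0.92 and -0.87), and rises common to both included Cacna2d1 (1.56 and 1.35), Actn4 (1.27 and 1.46), Gata4 (1.06 and 0.87) and Des (0.63 and 0.92).

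The courses differed in 51 probe sets (0.973%), 42 of them higher and 9 lower in the control course. Besides the heat shock genes, Kcnd3 and the clock genes, the named ones include the following, for each of which the difference itself passed. The class II antigen RT1-Da had a control difference of -0.23 and a diabetic one of -2.91, and the collagens Col3a1 and Col1a1 had -0.57 and -0.55 against -3.01 and -2.36. Ucp3, Slc41a3, Anxa5 and Ctsl had control differences of -0.15 to -0.48 and diabetic ones of 0.65 to 1.20. The differences between courses of Ucp3 and Slc41a3 ended without any of 11 and 10 of the 16 arrays. Those of RT1-Da, Col3a1, Col1a1, Ucp3, Slc41a3, Anxa5, Ctsl, Kcnd3 and Bhlhe41 ended within station 2 and within the shared chip lot. Both of these fits leave 1 array in some groups. Set beside the earlier growth interval, in which 390 probe sets differed between the day 28 and day 3 controls (7.44%, and 6.18% of genes), the heat shock genes had log2 differences from day 3 to day 28 of 1.52 for Hspa1a, 0.27 for Dnajb1, 0.53 for Hsph1, 0.45 for Dnaja1 and 0.36 for Hspb1, none past the threshold. The 2 intervals share the day 28 arrays, so their values are set side by side without a comparison.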

How the data were processed

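Total RNA of 24 rat ventricles was hybridised to 24 arrays, and the 8 control arrays of days 28 and 42 were compared. The deposited values are probe set signals, linear intensities that the authors made with MAS5, per the submitters' processing notes, whose version the sources used here do not state. The run-setting files gave scan day, operator, chip lot and fluidics station.

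Control probe sets (59 of 8799) were left out. Signals were raised to a floor of 30.5, the pooled 10th percentile, and taken to log2, and 5244 of 8740 probe sets above the 40th percentile of the mean were kept. Platform annotation gave 1 symbol for 7006 probe sets, several for 308 and none for 1426. For each gene the probe set with the highest mean was used, which left 3140 genes. A model with 6 groups was fitted over all 24 arrays in limma 3.58.1 (R 4.3.3) with a mean-variance trend and robust eBayes, with Benjamini-Hochberg adjustment over all probe sets. The fit has 18 residual degrees of freedom, and its code was tested on simulated data. Weights and RNA ratios were compared by exact permutation in scipy 1.17.1 under Python 3.11.15. The number of arrays, and not a read depth, limits the precision.

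Genes were named by rule: the 15 largest rises and falls whose 2 days do not overlap, all clock, immediate early and heat shock genes, up to 4 genes of every other list by adjusted p, the 5 largest differences between courses each way, and preset genes. Members, lists and tests were chosen with earlier results of these data known. Same-numbered replicates did not deviate together between the days (r = -0.035, -0.109, -0.087 and 0.045), so the numbers were not used as pairs. Promoters came from RefSeq, build GRCr8. Alternatives covered the floor, filter, pseudocount, normalization, probe set choice, blocks, a covariate and each array left out. Fits within 1 chip lot and within 1 fluidics station were added after seeing the data.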

Additional observations from a re-analysis of the deposited data

Results flagged for a closer look

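In 22 of 558 groups of 4 arrays or animals tested, 1 value lay far from the other 3 by Dixon's test, where chance gives about 1 in 20. Among day 42 controls, replicate 2 was apart for Pnn (log2 signal 8.539), Hsp90ab1 (15.56), Errfi1 (8.741), Gstm2 (12.21) and Socs2 (10.29). Replicate 3 was apart for Rpa3 (4.931, the floor), Bhlhe41 (10.45), Csnk1d (10.84), Grb10 (11.72), Pygb (13.86), Pdk2 (13.93) and Casq1 (11.87), and replicate 4 for Rpl5 (7.022). Among day 28 controls, replicate 1 was apart for Hlf (8.965) and Klf10 (6.763), replicate 2 for Nr1d1 (11.85), replicate 3 for B2m (15.07), Acaa2 (14.17) and Crot (9.87), and replicate 4 for Dusp5 (10.57). The heaviest day 42 control weighed 472 g, and 1 day 28 control had a ventricle to body weight ratio of 2.276 mg/g, each apart from the other 3 of its group.

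In 20 named genes the course from day 28 to day 42 differed between control and diabetic rats by the test of that difference in limma, on the log2 scale with control minus diabetic. Heat shock genes in this set were Hspa1a (3.736), Dnajb1 (2.37), Hsph1 (1.817), Dnaja1 (1.548) and Chordc1 (1.247), and clock genes were Dbp (3.238) and Bhlhe41 (1.695). The potassium channel gene Kcnd3 differed by 3.755 and LOC102553868 by 4.054. Matrix genes were Col3a1 (2.439), Col1a2 (1.875), Col1a1 (1.813), Lum (1.509) and Col15a1 (1.479), and class II genes were RT1-Da (2.681) and Cd74 (1.908). Ucp3 (-1.475), Slc41a3 (-1.395), Anxa5 (-0.8968) and Ctsl (-0.8883) lay lower in the control course.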

How the results depend on the processing

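The count of 474 control probe sets was 244 with 1 probe set per gene, 224 with only the compared groups in the fit, 187 with a fluidics station block, 126 with a chip lot block, 127 within the shared chip lot, 10 within station 2, 11 with the hexokinase covariate and 149 at an adjusted p under 0.01. It ran from 206 to 633 with 1 array left out. For the replicate block, the count was 484, and same-numbered arrays did not pair, so this fit is given only here. The diabetic count of 783 was 452 with 1 probe set per gene, 107 with the hexokinase covariate, 364 with a chip lot block, 27 within station 2 and 371 at an adjusted p under 0.01. The 51 differences between courses were 29 with 1 probe set per gene and 0 within station 2 (limma; 183 at an unadjusted p under 0.05), and 41 to 65 with 1 array left out. The earlier control interval, 390 in all, ran from 188 (without day 28 replicate 3) to 595 (without day 28 replicate 2). It was 255 without day 28 replicate 4 and 215, 253 and 258 without day 3 replicates 1, 2 and 4.

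The heat shock count of 8 was 5 with only the compared groups in the fit, 5 with a station block, 3 within the shared lot, and 0 with the hexokinase covariate, a chip lot block or within station 2 (limma; 7, 7 and 5 at an unadjusted p under 0.05). It ran from 5 to 9 with 1 array left out. With the looser E-box core CANNTG, 4 of 7 windows held a match in place of 1. The floor, the filter, the pseudocount, quantile normalization, median centring and plain eBayes kept the control count between 359 and 518. No named call changed sign in the alternatives run, but of all 474 called probe sets 473 kept their sign within the shared chip lot and 472 within station 2. Scan day and operator share no array between the days, so neither could be fitted as a block in the control comparison. The standard errors were 1.6 times wider with the hexokinase covariate and 1.28 times wider with the chip lot block, and the causes of these changes were not tested further.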
